A study of Mus musculus with 27 samples.

Results

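The genes described here encode 6 proteins that the liver releases into plasma: *Alb*, *Afp*, *Ttr*, *Gc*, *Ambp* and *Ahsg*. They were chosen by name, as liver carrier proteins that, apart from the fetal *Afp*, are known to be very abundant, and each was found on 1 row of a count table with 23191 gene symbols. Abundance was thus part of the choice, and their levels and shares of the libraries are a description and carry no test. Liver RNA was sequenced from 27 male C57BL/6J mice in 4 groups. Chow was eaten by 7 littermate controls and 6 HGFAC-KO mice, and a diet rich in fat and sucrose (HF/HS) by another 7 of each genotype. The mice were 8 weeks old when the diets began, and livers were taken after 4 weeks. The HGFAC-KO mice carry, in every tissue, a deletion that takes out exon 2 and some of exon 1 of *Hgfac*, which encodes a liver protease that activates hepatocyte growth factor. All groups share the strain, and no Cre or transgene was used. Whether the deletion was carried through 1 founder line is not given in the sources used here.

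Plasma carrier proteins are made mainly by hepatocytes and leave the cell through the secretory pathway. Albumin holds the osmotic pressure of plasma and carries fatty acids, bilirubin and drugs, transthyretin carries thyroxine and, with retinol-binding protein, retinol, and the *Gc* product binds vitamin D and free actin. Albumin, alpha-fetoprotein, afamin and the *Gc* product belong to 1 gene family whose members lie near each other in mammals, and alpha-fetoprotein is the form that dominates in fetal liver and is shut down after birth. Circulating albumin was 1 of the traits the study followed in HGFAC-KO mice, so the question here is how the mRNA of albumin and of similar proteins compared between genotypes and diets.

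The family members sit together on chromosome 5 (GRCm38, GENCODE M21). *Alb* (ENSMUSG00000029368) spans chr5:90460897-90476602 on the plus strand, *Afp* (ENSMUSG00000054932) follows at chr5:90490737-90508907 and *Afm*, the afamin gene, at chr5:90518932-90553543, both on the same strand. *Gc* (ENSMUSG00000035540) lies on the minus strand at chr5:89417522-89457898. *Ambp* (ENSMUSG00000028356) is at chr4:63143275-63154799 on the minus strand and *Ahsg* (ENSMUSG00000022868) at chr16:22891277-22899449 on the plus strand. *Ttr* is ENSMUSG00000061808. *Hgfac* is on chromosome 5 too, at chr5:35041509-35048461, far from the albumin cluster. *Afm* was not chosen as a member and is shown because it completes the cluster and because its level followed that of *Alb*, as given below.

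RefSeq promoters of build GRCm38.p6 were matched to 5 of the 6 genes, all but *Ttr*. The 200 bases before the RefSeq start sites of the 4 family members are printed 5′ to 3′ on the strand of the gene, because these genes belong to the same family while their levels differ widely. Capitals mark the letters searched: CCAAT, the box of many promoters, on either strand (then ATTGG), and TATAAA, the TATA box, on the strand of the gene.
Alb, chr5:90460670-90460869, plus strand: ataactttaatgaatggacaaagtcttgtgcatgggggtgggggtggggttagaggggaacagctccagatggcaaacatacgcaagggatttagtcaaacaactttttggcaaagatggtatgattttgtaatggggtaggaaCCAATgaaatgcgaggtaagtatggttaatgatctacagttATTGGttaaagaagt
Afp, chr5:90490514-90490713, plus strand: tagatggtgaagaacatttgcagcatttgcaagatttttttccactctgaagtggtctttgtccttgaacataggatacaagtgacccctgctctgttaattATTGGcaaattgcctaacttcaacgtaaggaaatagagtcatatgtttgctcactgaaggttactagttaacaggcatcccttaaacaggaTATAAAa
Afm, chr5:90518749-90518948, plus strand: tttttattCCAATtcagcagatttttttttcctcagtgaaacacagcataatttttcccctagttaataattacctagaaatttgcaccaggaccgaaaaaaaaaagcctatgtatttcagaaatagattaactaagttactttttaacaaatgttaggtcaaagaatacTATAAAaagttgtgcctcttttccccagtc
Gc, chr5:89457899-89458098, minus strand: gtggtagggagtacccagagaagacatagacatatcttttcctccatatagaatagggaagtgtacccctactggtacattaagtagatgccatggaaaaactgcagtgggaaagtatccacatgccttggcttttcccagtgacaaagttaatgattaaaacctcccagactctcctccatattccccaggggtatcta

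In the 250 bases before the start, each of these 4 promoters held CCAAT, which 33.8% of 32817 RefSeq promoters hold in the same window. It began 56 bases before the start of *Alb*, 192 before *Afm* and 225 before *Gc*, the last outside the bases printed, and on the other strand 15 before *Alb* and 98 before *Afp*. TATAAA was in *Afp* and *Afm*, 7 and 30 bases before the start, against 7.6% of all promoters, and was not found in the bases searched for *Alb* or *Gc*. All distances are from the RefSeq starts, which for *Alb*, *Afp* and *Afm* are not the GENCODE starts given above. The bases searched end at 90460869 for *Alb* and 90490713 for *Afp*, short of the GENCODE starts at 90460897 and 90490737. The bases between were not searched. Of the members outside the family, *Ambp* held CCAAT alone and *Ahsg* neither motif. These are matches of letters and no measurement of binding.

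The libraries held 36056177 to 57298657 counts, of which 4.13% to 12.1% fell on rows without a gene name, which were left out of all shares and tests. *Hgfac* checked the genotype labels: its level in CPM, the count scaled to a fixed library total, was 182.9 to 219.0 in controls and 65.4 to 84.5 in HGFAC-KO mice on chow, and 247.2 to 295.7 against 81.8 to 100.7 on HF/HS, so the genotypes did not overlap on either diet. The deletion covers the start of the gene, and which part of it the remaining *Hgfac* counts came from was not tested. The hepatocyte markers, 12 genes, summed to 32983 to 42618 CPM over the 27 mice, against 153.7 to 402.8 CPM for 12 Kupffer cell and leukocyte markers and 35.8 to 87.4 CPM for 7 cholangiocyte markers. In whole liver, a smaller share of hepatocytes and less RNA per hepatocyte cannot be told apart. Nothing in the labels ties replicate numbers to litters or days, and the test values measure the spread between the mice of a group.

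Albumin mRNA was the most abundant in the table, with 6.67% of all counts on named genes, followed by *Apoe*, the apolipoprotein E gene, with 2.16%. *Ahsg*, the gene of fetuin-A, a binder of calcium phosphate, was in place 9 with 0.695%, *Gc* in place 19 with 0.531% and *Ttr* in place 25 with 0.401%. *Ambp*, the gene of alpha-1-microglobulin and bikunin, was in place 57 with 0.209%. *Afp* held 1835 counts in all 27 libraries together and was in place 11324. Divided by exon length, the level of *Alb* was 28484 CPM per kilobase (SD 4206, 27 mice), that of *Ttr* 3391 (SD 412.1), of *Ahsg* 3168 (SD 260.6), of *Gc* 2879 (SD 166.6), of *Ambp* 1482 (SD 164.4) and of *Afp* 0.456 (SD 0.0989). *Alb* was thus the highest of 23059 genes on this scale, 8.4 times *Ttr* and 62464 times its neighbour *Afp*. The order of *Ttr* and *Ahsg* depended on the length used: *Ahsg* was higher in 8 of 27 mice with the union of all exons and in 26 of 27 with the longest transcript. *Gc* exceeded *Ambp* in 27 of 27 mice with either length.

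The share of a library held by the 6 genes differed between mice mainly through *Alb*. In controls on chow, *Alb* held 5.74% to 6.50% of named counts (median 6.02%), and in HGFAC-KO mice on chow 6.53% to 7.53% (median 6.88%). In controls on HF/HS its share ran from 5.29% to 6.96% (median 5.48%), and that of HGFAC-KO livers on the same diet from 6.42% to 8.81% (median 8.02%). The mean share was thus 0.825 percentage points higher in HGFAC-KO than in control liver on chow and 1.82 points higher on HF/HS. On chow the lowest HGFAC-KO share lay just above the highest control share, and on HF/HS the groups overlapped. With rows without a gene name in the denominator the groups overlapped on chow too, at 5.26% to 6.14% in controls and 5.77% to 7.17% in HGFAC-KO mice. On the normalized scale used below *Alb* likewise overlapped on chow, where by that scale 0.0737% of genes were higher without overlap. Counting error plays little part at this depth, as the 95% Wilson interval of the most albumin-rich library, 8.80% to 8.82%, shows. The 6 genes together held 7.91% ± 0.378 (SD, n = 7) of named counts in controls and 8.80% ± 0.504 (n = 6) in HGFAC-KO mice on chow, and 7.70% ± 0.740 (n = 7) and 9.63% ± 0.828 (n = 7) on HF/HS. *Ahsg* added 0.599% to 0.826%, *Gc* 0.473% to 0.570%, *Ttr* 0.302% to 0.486% and *Ambp* 0.181% to 0.289% of a library.

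*Alb* had a higher median in HGFAC-KO than in control liver on both diets. By edgeR it passed the threshold on neither diet alone and did in a fit over both diets, while DESeq2 called it on each. Levels are CPM after TMM scaling, a normalization in which the few largest genes do not set the scale. On chow, the 7 controls ran from 55251 to 66858 (median 58928) and the 6 HGFAC-KO mice from 63726 to 73814 (median 69234). Of the HGFAC-KO mice, 5 of 6 lay above every control, and HGFAC-KO replicate 6 lay among the controls. The difference was 0.20 on the log2 scale (SE 0.061), a 15.3% higher level, with an adjusted p of 0.801 by edgeR's quasi-likelihood test over 13571 genes (unadjusted p = 0.00417) and p = 0.00466 by an exact two-sided permutation test of log2 CPM. On HF/HS, the controls ran from 52926 to 69281 (median 56093) and the HGFAC-KO mice from 64164 to 89857 (median 79774). Here 6 of 7 HGFAC-KO mice lay above every control, replicate 4 being the exception, and the 2 highest controls were replicates 2 and 5. The difference was 0.40 (SE 0.0913), a 31.5% higher level (edgeR adjusted p = 0.331, unadjusted p = 0.0005, exact permutation p = 0.00233). The smallest p that this permutation test can give is 0.000583 on either diet.

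Adjusted over all genes, none of the 6 members passed the threshold of 0.05 in either genotype comparison by edgeR, where the background was 0.00737% of the genes tested on chow and 0.0148% on HF/HS, or 2 genes, which became 11 without HGFAC-KO HF/HS replicate 5 and 5 without control HF/HS replicate 7. limma's voom called none of the members either. Before adjustment, *Alb* and *Ahsg* on chow and *Alb* on HF/HS had p under 0.05 and were higher, against 3.39% and 4.94% of all genes. By size of p, *Alb* was in place 56 of 13571 on chow and in place 18 of 13544 on HF/HS. DESeq2, which estimates the spread of each gene differently, called *Alb* on HF/HS (adjusted p = 0.00839), where it called 0.406% of all genes, and on chow (adjusted p = 0.0337), where it called 0.0958%, the latter call lost when its filter on low counts was off (adjusted p = 0.145). A genotype term over all 27 mice with diet as a covariate, chosen after the results on each diet had been seen, gave *Alb* 0.30 (SE 0.057), or a 23.2% higher level in HGFAC-KO liver, with an edgeR adjusted p of 0.0283, and 22 of 13932 genes, or 0.158%, were called in it. *Alb* was the 1 member among them. This call was lost without control HF/HS replicate 1 (adjusted p = 0.0583), HGFAC-KO HF/HS replicate 2 (0.0536) or replicate 7 (0.0540), while the difference stayed between 0.28 and 0.32 whichever mouse was left out. The count of genes called moved more: it was 2 without HGFAC-KO HF/HS replicate 2 or 7, 3 without control HF/HS replicate 1 and 63 without control HF/HS replicate 7, and it lay between 6 and 43 as each of the other mice was left out. With library size alone in place of TMM it was 62, of which 17 were higher in HGFAC-KO liver against 14 of the 22, and with the replicate number as a block it was 14. The *Alb* difference was 0.19 larger on HF/HS than on chow (SE 0.11, 27 mice), and the interaction test did not separate the diets (edgeR adjusted p = 0.984, unadjusted p = 0.0865). In that test 0 of 13932 genes were called, no member had an unadjusted p under 0.05, and DESeq2 and voom called no member.

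**Figure D1:**
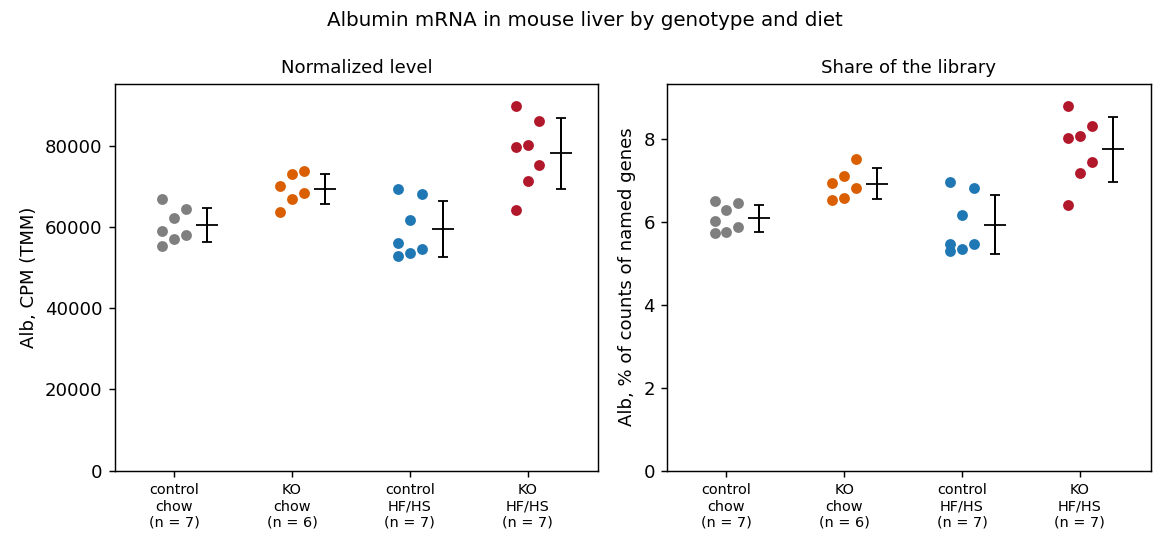
*Alb* in each of the 27 mice, as CPM after TMM scaling (left) and as the percent of counts on named genes (right), by group. Points are mice and the black mark with bars is the mean with SD, and 5 of 6 HGFAC-KO mice on chow and 6 of 7 on HF/HS lie above every control of their diet on the left.

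The other members were tested in the same fits, and each differed between the genotypes by less than *Alb* on chow and on HF/HS. *Ahsg* came next on chow, where control levels lay between 5766 and 7451 CPM (median 6421) and HGFAC-KO levels between 6761 and 8007 (median 7397). On HF/HS they lay between 6067 and 7678 (median 6437) and between 6847 and 7583 (median 7356). The groups overlapped on both diets, and the highest mouse on HF/HS was a control, replicate 7. The log2 difference was 0.16 (SE 0.0659, exact permutation p = 0.0326) on chow and 0.13 (SE 0.062, exact permutation p = 0.0239) on HF/HS, with edgeR adjusted p of 0.801 and 0.519. On HF/HS the fitted differences of *Afp* (0.22) and *Ambp* (0.14) were above this value. Over both diets that of *Ahsg* was 0.14 (SE 0.0428), with an adjusted p of 0.144 by edgeR and 0.0467 by DESeq2 without its filter on low counts, which called 1.17% of 13932 genes there.

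*Gc* had the smallest spread of the 6 genes, with its highest mouse 1.24 times its lowest. On chow the controls spanned 4951 to 5568 CPM (median 5246) and the HGFAC-KO mice 5269 to 5831 (median 5640). On HF/HS they spanned 4695 to 5388 (median 5103) and 4917 to 5796 (median 5346). On chow 4 of 6 HGFAC-KO mice lay above every control, and on HF/HS 3 of 7 did. The log2 difference was 0.09 (SE 0.0463, exact permutation p = 0.0117) on chow and 0.10 (SE 0.0577, exact permutation p = 0.0559) on HF/HS, again not past the threshold by edgeR (adjusted p = 0.801 and 0.609).

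*Ambp* on chow spanned 1957 to 2165 CPM (median 2046) for controls and 1851 to 2387 (median 2240) for HGFAC-KO mice. With HF/HS feeding the spans were 1798 to 2304 (median 1856) and 1937 to 2926 (median 2071), so the genotypes overlapped on both diets. The log2 differences were 0.07 (SE 0.0641) and 0.14 (SE 0.0922), with edgeR adjusted p of 0.842 and 0.645. That on chow was between 0.04 and 0.11 as single mice were left out. The highest *Ambp* value came from HGFAC-KO HF/HS replicate 2, and the difference on HF/HS was between 0.05 and 0.18 as single mice were left out. That library was also the highest of its group for the acute-phase genes *Saa2*, at 49.9 CPM against at most 13.6 in the other 6 mice, and *Hp*, at 6101 against at most 4614, and its part in the result beyond leaving it out was not tested.

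*Ttr* stood apart from the others in that its median was lower in HGFAC-KO than in control liver on chow, at 3647 against 4017 CPM, and higher on HF/HS, at 4235 against 3904 CPM. The groups overlapped fully on chow, where the HGFAC-KO mice held both the lowest value of all 27 mice (2926) and the highest (4889). The log2 differences were -0.05 (SE 0.11) and 0.05 (SE 0.08), with edgeR adjusted p of 0.933 and 0.878, and 2 SE to each side ran from -0.27 to 0.17 on chow. As single mice were left out, they ran from -0.12 to 0.02 on chow and from 0.01 to 0.10 on HF/HS. *Rbp4*, which encodes the partner that rides on transthyretin, ran from 2464 to 3015 CPM on chow and from 2451 to 3291 on HF/HS and differed by 0.06 and -0.08 between the genotypes (edgeR adjusted p = 0.854 and 0.741).

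*Afp* was low but detected in every library, with 30 to 107 counts each. Its level was 0.732 to 2.11 CPM over the 27 mice, and both extremes were HGFAC-KO mice on chow. The log2 difference was 0.11 (SE 0.204) on chow and 0.22 (SE 0.141) on HF/HS (edgeR adjusted p = 0.927 and 0.63). On chow it ran from 0.02 without HGFAC-KO replicate 5 to 0.25 without HGFAC-KO replicate 1, the mouse with the lowest level, and was 0.02 with the replicate number as a block. The coefficient of variation within groups was 15.9% to 30.2%. The 95% Wilson interval of the library with the fewest counts, 30, was 5.29e-05% to 0.000108% of named counts. Whether strand was used in counting is not given in the sources used here, so reads of any antisense transcript over *Afp* cannot be told apart from its own. Other genes of fetal liver were as scarce, and the list of 7 summed to 1.50 to 7.27 CPM a library. Of these, *Hbb-bh1* and *Lin28b* were at or near 0 in every group. With 3 of the 7 tested on each diet, none was called between the genotypes by edgeR. At an unadjusted p under 0.05, 1 of the 3 was higher with either diet, against 3.39% and 4.94% of all genes. It was *Igf2bp3* both times, named after its values were seen. In direction alone 3 of 3 and 2 of 3 were higher, with medians of 0.44 and 0.48, beside 0.00 over all genes. A list of 3 tested genes is too short to show a tendency. Without HGFAC-KO replicate 1 of each diet, which held the 2 highest sums (7.27 and 4.62 CPM), the medians were -0.02 and 0.13.

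**Figure D2:**
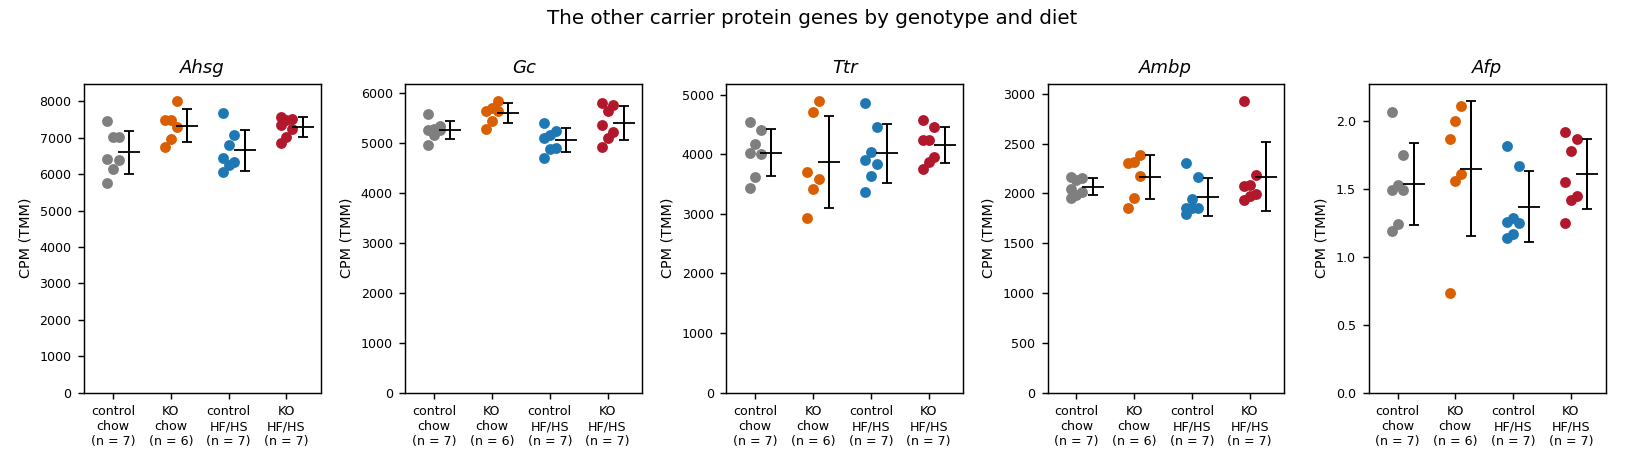
CPM after TMM scaling of *Ahsg*, *Gc*, *Ttr*, *Ambp* and *Afp* in each mouse by group, each panel with its own axis from 0. Points are mice and the black mark with bars is the mean with SD, and in every panel the HGFAC-KO and control mice of a diet overlap.

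The diets were compared within each genotype. In controls, none of the 6 genes was called between HF/HS and chow, although 10.5% of 13525 genes were, 1424 in number, or 774 with the replicate number as a block, and in HGFAC-KO mice none was called against 5.89% of 13613 genes, 802 in number, or 467 without HGFAC-KO chow replicate 2. No member had an unadjusted p under 0.05 in these 2 comparisons. DESeq2, which called 14.3% and 10.3% of the genes, and voom called none of the members. In controls the fitted log2 changes ran from -0.16 (*Afp*, SE 0.15) to 0.01 (*Ahsg*, SE 0.0679), and that of *Alb* was -0.03 (SE 0.0773, edgeR adjusted p = 0.879). In HGFAC-KO mice they ran from -0.05 (*Gc*, SE 0.0599) to 0.17 (*Alb*, SE 0.083), the latter with an edgeR adjusted p of 0.241 and an exact permutation p of 0.0513. For *Alb* 5 of 7 HGFAC-KO mice on HF/HS lay above every HGFAC-KO mouse on chow. These diet comparisons share their mice with the genotype comparisons. Over the 4 groups, mean *Alb* was in the order HGFAC-KO HF/HS (78085 CPM), HGFAC-KO chow (69329), control chow (60380) and control HF/HS (59415), and neighbours in this order overlapped. *Hgfac* itself, by contrast, was 34.6% higher on HF/HS in controls (edgeR adjusted p = 5.47e-05).

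**Figure D3:**
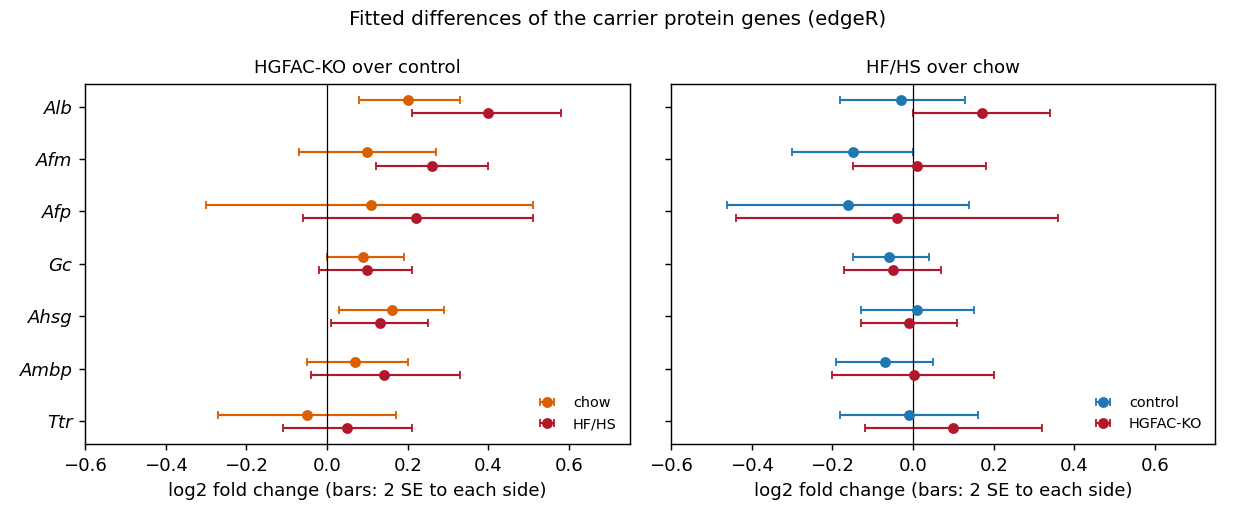
Fitted log2 differences from edgeR for the 6 genes and *Afm*, HGFAC-KO over control on each diet (left) and HF/HS over chow in each genotype (right), with bars of 2 SE to each side. *Alb* lies farthest to the right on the left, at 0.20 on chow and 0.40 on HF/HS, and in the right panel the points lie between -0.16 and 0.17.

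The gene whose level was most like that of *Alb* over the 27 mice was its neighbour *Afm*, with a Pearson correlation of log2 CPM of 0.76, the highest of 13931 genes compared (0.73 after the group means were taken out). *Afm* encodes a vitamin E binding protein and was at 169.0 to 270.4 CPM. On HF/HS its 7 controls ran from 169.0 to 226.9 CPM and its 7 HGFAC-KO mice from 209.1 to 263.5, 5 of which lay above every control. The log2 difference was 0.26 (SE 0.0706, edgeR adjusted p = 0.341, exact permutation p = 0.00524), and on chow it was 0.10 (SE 0.0837, edgeR adjusted p = 0.841). Because *Afm* is shown partly for following *Alb* in these same mice, its genotype difference is not independent of that of *Alb*. *Afp*, which lies between *Alb* and *Afm*, did not follow either, with correlations of 0.14 and -0.01. After *Afm* came *Rdh16f2* (0.74), a retinol dehydrogenase family gene, and *Vnn3* (0.73), a vanin family gene. All points share their library scaling, and these values are a description.

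**Figure D4:**
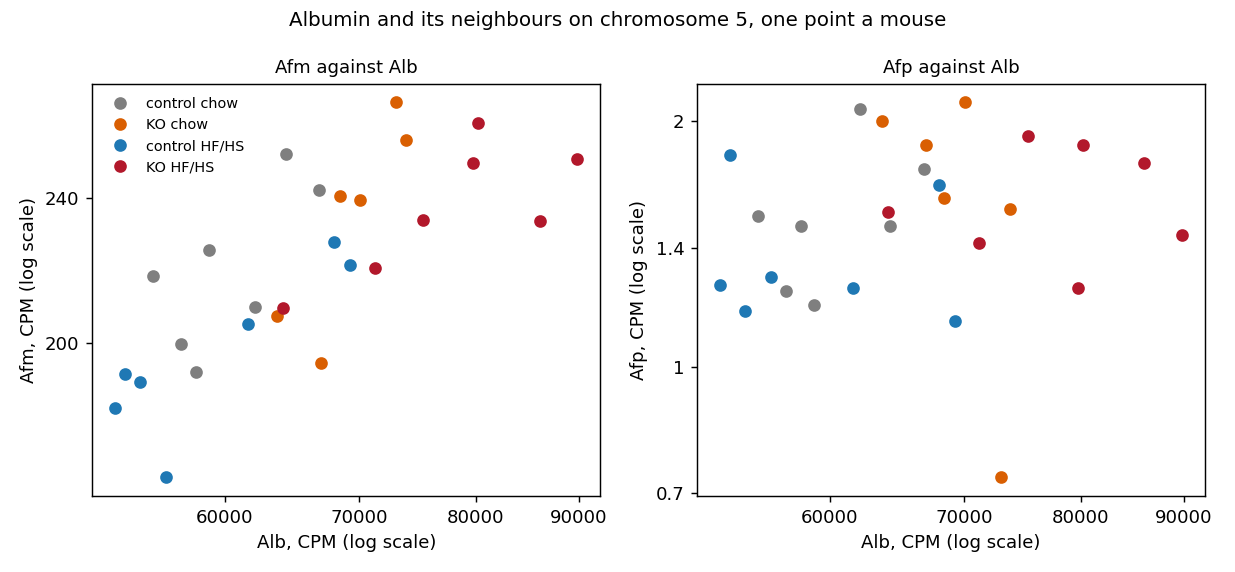
*Afm* (left) and *Afp* (right) against *Alb* in CPM on log axes, 1 point a mouse, colored by group. *Afm* climbs with *Alb* over the 27 mice (r = 0.76) and *Afp* does not (r = 0.14).

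Among the members, *Alb* was most like *Gc* (r = 0.67), then *Ahsg* (0.57) and *Ttr* (0.43). With the group means taken out, the value for *Gc* was 0.66 and that for *Ttr* 0.62, while that for *Ahsg* was 0.27. Each of the other members had its nearest gene elsewhere. *Gc* was most like *Kng1* (0.84) and *Kng2* (0.74), the kininogen genes, and *Ambp* most like *Vtn* (0.85), the gene of vitronectin. *Ttr* was most like *Hsd11b1* (0.82), which encodes the enzyme that reactivates glucocorticoids, with *Hamp2* (0.79) and *Apoc1* (0.78) after it. *Ahsg* had the weakest nearest gene, *Pabpc4* (0.71), a poly(A)-binding protein gene, followed by *Cfi* (0.67), the complement factor I gene. The nearest genes of *Afp*, *Zc3h12d* (0.79), *1110019D14Rik* (0.76) and *Cdnf* (0.72), were themselves at 4.88 CPM or less. Between the genotypes none of the 18 nearest genes was called on either diet (edgeR adjusted p from 0.341 to 0.992).

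Other plasma carriers were followed as a list of 20 genes, 18 of which had enough counts to be tested. None was called between the genotypes by edgeR, with 2 on chow and 3 on HF/HS at an unadjusted p under 0.05, all higher, against 3.39% and 4.94% of all genes. Their median log2 difference was 0.08 on chow, with 14 of 18 higher, and 0.04 on HF/HS, with 11 of 18 higher, beside a median of 0.00 over all genes. *Apom*, the gene of apolipoprotein M, was called by DESeq2 on chow, and over both diets edgeR called it 0.22 higher (SE 0.0442, edgeR adjusted p = 0.0284). *Trf*, the transferrin gene and the most abundant of the list, is named after its values were seen: on HF/HS its controls spanned 14482 to 19145 CPM and its HGFAC-KO mice 17351 to 23614 (log2 difference 0.23, edgeR adjusted p = 0.448). Between the diets, *Fetub*, a paralog of *Ahsg* for fetuin-B, fell by 0.38 on the log2 scale on HF/HS in HGFAC-KO mice (SE 0.0934, edgeR adjusted p = 0.0252), while *Ahsg* differed by -0.01 in the same fit. DESeq2 called *Fetub*, *Azgp1* and *Orm3* in HGFAC-KO mice and *Orm2* in controls between the diets. That was 3 of 18 and 1 of 18 genes, against 10.3% and 14.3% of all genes. As single mice were left out, the *Apom* call was lost in 6 of 27 fits (adjusted p up to 0.065) and that of *Fetub* in 4 of 13 (up to 0.0575).

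Partners of the members were a list of 13 genes. Among them were the heavy chains that bikunin is joined to (*Itih1* to *Itih3*) and *Itih4* of the same family. The receptor that saves albumin from breakdown (*Fcgrt* with *B2m*) and the asialoglycoprotein receptor (*Asgr1*, *Asgr2*) were on it too. None was called by edgeR in the genotype or diet comparisons. Between the genotypes, 1 was higher and 1 lower on chow with p under 0.05 before adjustment, against 3.39% and 2.59% of all genes, and 2 were higher and 1 lower on HF/HS, against 4.94% and 4.7%. DESeq2 called none of them, while between the diets DESeq2 called *Itih1* in both genotypes and *Cyp2r1*, a vitamin D 25-hydroxylase, in controls. That was 2 of 13 in controls, against 14.3% of all genes, and 1 of 13 in HGFAC-KO mice, against 10.3%. The median log2 difference between the genotypes was 0.07 on chow and -0.06 on HF/HS. The regulators were 16 genes for factors known to act on *Alb* or *Afp*. None was called between the genotypes by edgeR, with medians of 0.05 and -0.02. On chow 2 had an unadjusted p under 0.05, both higher, against 3.39% of all genes, of which DESeq2 called *Foxa3*, and on HF/HS 0 did. *Hnf4a* differed by -0.02 and 0.12 and *Cebpa* by 0.03 and -0.02 (edgeR adjusted p from 0.657 to 0.972), values given after they were seen. *Dbp*, which encodes the D-box factor first found at the albumin promoter and is a clock output gene, rose by 1.47 on the log2 scale on HF/HS in controls (SE 0.387, edgeR adjusted p = 0.0284). In HGFAC-KO mice *Foxa2* fell by 0.29 on HF/HS (SE 0.0752, edgeR adjusted p = 0.0329). As single mice were left out, the *Dbp* call was lost in 6 of 14 fits (adjusted p up to 0.0553) and that of *Foxa2* in 5 of 13 (up to 0.0741). *Alb* was not called in either diet comparison.

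Albumin and transthyretin are known as negative acute-phase proteins, which fall in inflammation, and 25 acute-phase genes were followed for that reason. None was called between the genotypes by edgeR or DESeq2. On HF/HS 1 of the 25 had an unadjusted p under 0.05 by edgeR and was lower, against 4.7% of all genes, and on chow 0 did. The median log2 difference of the 25 genes was 0.10 on chow and -0.02 on HF/HS. Single libraries stood out: *Saa1* was at 1292 CPM in HGFAC-KO chow replicate 4 and at 1240 in control HF/HS replicate 7, against medians of 41.4 and 35.8 in their groups. *Alb* in these mice was 66977 and 56093 CPM, within the range of their groups. Without them the *Alb* difference was 0.22 on chow and 0.38 on HF/HS. The 3 fibrinogen genes rose on HF/HS in HGFAC-KO mice, *Fga* by 0.41 (SE 0.0788), *Fgg* by 0.36 (SE 0.0709) and *Fgb* by 0.36 (SE 0.0697), with edgeR adjusted p of 0.0066, 0.00691 and 0.00707. In controls *Fga* differed by 0.45 and *Fgg* by 0.38 (edgeR adjusted p = 0.102 and 0.104), and *Fgb* rose by 0.40 (SE 0.122, edgeR adjusted p = 0.0473). DESeq2 called *Fga* and *Fgb* in controls and voom none of the 3. Control HF/HS replicate 7 stood apart here too, at 5791 CPM of *Fgb* against at most 3617 in the other 6 mice of its group and 7613 CPM of *Fga* against at most 4139. Without it *Fgb* was 0.25 higher (SE 0.0643, edgeR adjusted p = 0.0187), *Fga* differed by 0.24 and *Fgg* by 0.21 (adjusted p = 0.0823 and 0.0911). The *Fgb* call was lost in 10 of the 14 fits that left out 1 mouse (adjusted p up to 0.0928). Between the diets edgeR called 3 of the 25 acute-phase genes in HGFAC-KO mice, against 5.89% of all genes, and 1 in controls, against 10.5%. DESeq2 called 4 in HGFAC-KO mice, *Orm3* beside the fibrinogen genes, against 10.3% of all genes. In controls it called 5, among them *Orm2*, *Saa4* and *Steap4*, against 14.3%.

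Cell type markers are given beside these results. None of the hepatocyte markers was called between the genotypes on either diet by edgeR, and DESeq2 called *Apoa1* on chow. At an unadjusted p under 0.05, 1 was higher on chow, against 3.39% of all genes, and 5 were lower on HF/HS, against 4.7%. The list summed to medians of 38252 CPM in controls and 38351 in HGFAC-KO mice on chow, and of 40378 and 35943 on HF/HS. On HF/HS 2 of 12 were higher in HGFAC-KO liver, with a median log2 difference of -0.19, where *Alb* was 0.40 higher. Of the 12 Kupffer cell and leukocyte markers, 1 was higher on chow (median -0.24) and 7 on HF/HS (median 0.03), and of the 8 endothelial markers 1 was higher on each diet (medians -0.21 and -0.17). The 8 stellate cell and matrix markers had medians of -0.06 and -0.03, the 5 blood cell markers tested of -0.03 and 0.51 (0.00 without HGFAC-KO HF/HS replicate 1), and the 6 cholangiocyte markers tested of 0.11 and 0.00, of which *Sox9* was called over both diets (0.67 higher, SE 0.14, edgeR adjusted p = 0.0434). The *Sox9* call was lost in 18 of 27 fits that left out 1 mouse, and DESeq2 also called *Sox9* on HF/HS. HGFAC-KO HF/HS replicate 1 had the highest summed level of the blood cell markers of the 27 mice, at 402.5 CPM, and the highest *Alb*, while the median sum on HF/HS was 161.2 CPM in HGFAC-KO mice and 184.3 in controls.

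Between the diets, hepatocyte markers were called in both directions. In controls 1 of 12 rose, *Apoa1* by 0.39 (edgeR adjusted p = 0.000292), and 1 fell, *Tat*, the tyrosine aminotransferase gene, by 0.51 (adjusted p = 0.048, lost in 12 of 14 fits that left out 1 mouse). In HGFAC-KO mice none rose and 3 fell: *Tat* by 0.75 (adjusted p = 0.0121), *Tdo2*, the tryptophan dioxygenase gene, by 0.52 (adjusted p = 0.0049) and *Hpd* by 0.30 (adjusted p = 0.037, lost in 8 of 13 fits). Of the Kupffer cell and leukocyte markers, edgeR called 6 of 12 higher in HGFAC-KO mice, against 5.89% of all genes in either direction, and 1 in controls, against 10.5%, and none lower. DESeq2 and voom called 2 in controls, *S100a8* and *Clec4f*. Of the 6 in HGFAC-KO mice, *Adgre1* was lost in 8 of 13 fits that left out 1 mouse and *Cd74* in 6 of 13, both named for this after their values were seen. *Cd68*, *Clec4f* and *Cd5l*, genes of Kupffer cells and other macrophages, rose by 0.51, 0.65 and 0.68 in HGFAC-KO mice (edgeR adjusted p = 0.0029, 0.00372 and 0.012), and *S100a8*, a neutrophil gene, rose by 1.62 in controls (adjusted p = 0.0082). Endothelial *Stab2* and *Dnase1l3* rose by 0.42 and 0.38 in HGFAC-KO mice (edgeR adjusted p = 0.0124 and 0.0323), the latter lost in 7 of 13 fits. DESeq2 called 2 of 8 endothelial markers in controls, *Clec4g* and *Dnase1l3*, against 14.3% of all genes. In HGFAC-KO mice it called 3, *Dnase1l3*, *Kdr* and *Stab2*, against 10.3%. Among stellate cell and matrix markers in controls, *Ecm1* rose by 0.28 (adjusted p = 0.0193) and *Lrat*, which encodes the enzyme that stores retinol as esters, fell by 0.60 (adjusted p = 0.0273, lost in 3 of 14 fits). *Hgf*, the hepatocyte growth factor gene, rose by 0.53 in controls and 0.91 in HGFAC-KO mice (adjusted p = 0.0479 and 0.0411), calls lost in 11 of 14 and 9 of 13 fits. Of the 5 blood cell markers tested, 2 fell in controls by edgeR, *Slc4a1* by 1.32 (adjusted p = 0.0107) and *Hba-a2* by 1.02 (adjusted p = 0.0238, lost in 1 of 14 fits). DESeq2 and voom called *Hbb-bs* in controls too. In HGFAC-KO mice no blood cell marker was called by edgeR or DESeq2 or had an unadjusted p under 0.05. The part of cell composition in the *Alb* difference was not tested.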

How the data were processed

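Stranded mRNA libraries of 27 livers were sequenced as paired reads. Per the study's methods and the labels, the authors aligned them to GRCm38 (mm10) with HISAT2 and counted reads with featureCounts 1.6.3, and the deposited table holds raw counts per gene. The annotation and the strand setting are not given in the sources used here, nor is the test behind the BioJupies server the authors used. Of 27179 rows, 3886 without a gene name were left out. The total per library was 36056177 to 57298657, and counting error is small beside the spread between mice, except for *Afp*. Intervals cover counting error only. No pair of libraries matched within sampling noise.

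Each comparison was fitted on the whole table with edgeR 4.0.16 in R 4.3.3 (TMM scaling, filterByExpr with a minimum count of 10, quasi-likelihood test, Benjamini-Hochberg adjustment over all genes tested, threshold 0.05). Genotype was tested within each diet, diet within each genotype, and their interaction over 27 mice. Single genes were also tested by exact two-sided permutation of log2 CPM (prior count 2). Levels per kilobase used GENCODE M21 exon lengths. The fit over both diets and DESeq2 without its filter were added after the data were seen. DESeq2 1.42.0, limma 3.58.1 (voom), other filters and scalings, a replicate block and leaving out each mouse were the alternatives, and fits were tested on simulated counts. The members and lists were chosen with earlier results of these data known. Named genes were the members, *Hgfac*, the 3 most correlated genes of each member, and up to 3 called genes of each list, by smallest p, and the text says where another gene was picked from its values. Whether replicate numbers pair mice is not given in the labels.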

Additional observations from a re-analysis of the deposited data

Results flagged for a closer look

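In the 24 groups of 6 or 7 mice examined, 1 value stood apart by Dixon's test, where chance alone is expected to pick about 1 in 20 groups. *Ambp* in HGFAC-KO HF/HS replicate 2 was at 2926 CPM, against 1937 to 2187 in the other 6 mice of the group, a gap of 0.748 of the group's range with a critical value of 0.568. The same library had the highest summed level of the other plasma carriers of all 27 mice, 54233 CPM against 47952 in the next, and the highest *Trf* of all mice, 23614 CPM. The cause was not tested.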

How the results depend on the processing

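Beside leaving out mice, 324 of 342 values kept their direction and their side of the threshold, 4 came to pass it and 14 turned direction. DESeq2 moved calls for *Alb*: it called 1 member on chow (*Alb*, 0.20, adjusted p = 0.0337), among 13 of 13571 genes, and 1 on HF/HS (*Alb*, 0.39, adjusted p = 0.00839), among 55 of 13544, the latter also with its filter off. Over both diets it called 2 members without its filter, *Alb* and *Ahsg* (0.14, adjusted p = 0.0467), among 163 of 13932 genes. edgeR called 1, 2 and 22 genes in these comparisons. The cause was not tested. The values that turned direction were all near 0. Under HF/HS against chow in controls, *Ahsg* was -0.00269 with library size alone. In HGFAC-KO mice, *Afp* was 0.02 with voom and 0.06 with the replicate block, and *Ambp* was -0.00101 by DESeq2 with or without its filter, -0.01 with voom, -0.00189 with at least 10 counts in every library, -0.01 with upper-quartile scaling and -0.00341 with library size alone. The interaction of *Gc* was -0.000868 with at least 10 counts in every library. Over both diets *Ttr* was 0.00364 with no filter, 0.00019 with at least 10 counts, 0.01 with upper-quartile scaling and 0.00299 when scaled without the members.

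With each mouse left out in turn, no member was called in the 5 planned comparisons. Over both diets *Alb* kept its direction (0.28 to 0.32, adjusted p from 0.0154 to 0.0583), and 0 to 1 members were called. Differences near 0 ran on both sides of it: genotype on chow for *Ttr* (-0.12 to 0.02) and over both diets for *Ttr* (-0.03 to 0.03); diet in controls for *Alb* (-0.07 to 0.00401), *Ttr* (-0.06 to 0.03) and *Ahsg* (-0.03 to 0.04); diet in HGFAC-KO mice for *Afp* (-0.19 to 0.05), *Ambp* (-0.09 to 0.03) and *Ahsg* (-0.03 to 0.01); and the interaction for *Afp* (-0.03 to 0.21), *Ahsg* (-0.05 to 0.01), *Ambp* (-0.01 to 0.11) and *Gc* (-0.01 to 0.03).

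With rows without a gene name in the denominator, the mean share on chow was 5.66% in controls and 6.44% in HGFAC-KO mice for *Alb*, and 7.35% and 8.20% for the 6 genes. With the longest transcript as length, the levels per kilobase were 32797 for *Alb*, 0.745 for *Afp*, 1647 for *Ambp* and 4690 for *Ahsg*. How far same-numbered mice deviated together differed between the comparisons. Between the genotypes on chow and on HF/HS, the median correlation was 0.00628 and 0.0708, against -0.00938 and -0.00831 for other pairs. Between the diets in controls and in HGFAC-KO mice, it was -0.0436 and 0.125, against 0.00153 and 0.00252. In this order, correlations were over 0.1 in 1 of 6, 3 of 7, 0 of 7 and 4 of 6 pairs. In the same order, 1, 0, 1 and 2 mice correlated best with their own number. With the replicate block *Alb* differed by 0.19 on chow (adjusted p = 0.874) and 0.40 on HF/HS (adjusted p = 0.276), and the diet calls changed from 1424 to 774 genes in controls and, in HGFAC-KO mice, from 802 to 602. Counting error is not small beside the spread between mice for *Afp*, with 30 to 107 counts a library, and is small for the other members.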
